A study of Mus musculus with 42 samples.

Results

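The genes described here are Cdkn1a, Gadd45a, Gadd45b, Gadd45g, Mdm2, Ccng1, Trp53, Trp53inp1, Bax and Bbc3, the gene of the transcription factor p53 with 9 genes known as its targets or as relatives of these. They were chosen by symbol, and all 10 were found among the 13809 genes of the deposited table. RNAseq was performed on TA (tibialis anterior, a hindlimb muscle) of male mice at 4 months of age, 42 libraries in all. The values used are the deposited normalized counts, which are linear and not log-transformed. Set 1 held WT, Sesn1SkM-Tg and Sesn2SkM-Tg muscles, each in the basal state (no atrophy induced) or after 3 days of hindlimb immobilization. Set 2 held WT and Sesn1KO muscles in the same states, and WT muscles after denervation, in which a segment of the sciatic nerve was removed. The denervated muscles were taken to be from 3 days, while the paper's methods give 3 or 10 days after atrophy was induced. The sample titles give no time. A group had 4 libraries, except for 3 in the immobilized WT muscles of set 1 and in the immobilized Sesn1SkM-Tg muscles. Sesn1SkM-Tg mice carry human Sesn1 under the muscle creatine kinase (MCK) promoter. Sesn2SkM-Tg mice express human Sesn2 from a Tet-regulated promoter with an MCK-driven tTA. Sesn1KO is the label of the knockout mice, whose allele is not given in the sources used here. The paper states a C57BL/6J background for the Sesn1SkM-Tg line and none for the Sesn2SkM-Tg and Sesn1KO lines. The paper used non-transgenic littermates as controls of each transgenic line. Set 1 holds a single WT group for both lines, and which line its mice were littermates of is not given in the sources used here. No source used here ties a library to a named animal, so the spread between libraries may be partly technical.

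p53 is a transcription factor that is held at a low level by the ubiquitin ligase Mdm2, itself a p53 target. When p53 is stabilized, as after DNA damage, it raises Cdkn1a (p21, an inhibitor of cyclin-dependent kinases), the growth arrest gene Gadd45a, the cyclin Ccng1 and the apoptosis genes Bax and Bbc3 (PUMA). In skeletal muscle Cdkn1a and Gadd45a are also known as genes that rise in atrophy, downstream of factors other than p53 such as ATF4.

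The stretches before the annotated start of the 4 genes on which the results turn are shown because Cdkn1a and Gadd45a rose with denervation while Gadd45b and Gadd45g fell. They are RefSeq promoter windows of GRCm38.p6, written 5′ to 3′ on the strand of the gene and ended before the first annotated exon. They lie at chr17:29090729-29090975 (plus strand) for the upstream start of Cdkn1a, at chr6:67037458-67037657 (minus strand) for Gadd45a, at chr10:80929841-80930072 (plus strand) for Gadd45b and at chr13:51846425-51846674 (plus strand) for Gadd45g. In the GENCODE annotation of GRCm38 the genes themselves span chr17:29090976-29100727 (Cdkn1a), chr6:67035096-67037457 (Gadd45a), chr10:80930073-80932204 (Gadd45b) and chr13:51846678-51848468 (Gadd45g). Capitals mark letters that match a searched motif.
Cdkn1a: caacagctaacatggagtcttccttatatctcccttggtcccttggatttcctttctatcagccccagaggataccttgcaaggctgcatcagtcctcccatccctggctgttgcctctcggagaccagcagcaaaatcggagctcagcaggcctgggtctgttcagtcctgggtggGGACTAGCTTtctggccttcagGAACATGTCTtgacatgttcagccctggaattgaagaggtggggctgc
Gadd45a: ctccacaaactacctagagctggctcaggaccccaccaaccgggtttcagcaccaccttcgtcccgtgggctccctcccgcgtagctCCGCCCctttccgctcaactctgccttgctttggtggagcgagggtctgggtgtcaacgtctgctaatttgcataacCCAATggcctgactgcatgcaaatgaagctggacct
Gadd45b: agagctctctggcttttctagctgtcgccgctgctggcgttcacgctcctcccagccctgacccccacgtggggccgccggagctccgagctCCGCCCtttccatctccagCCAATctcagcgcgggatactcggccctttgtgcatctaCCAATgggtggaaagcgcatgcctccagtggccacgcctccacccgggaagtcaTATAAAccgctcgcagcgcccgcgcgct
Gadd45g: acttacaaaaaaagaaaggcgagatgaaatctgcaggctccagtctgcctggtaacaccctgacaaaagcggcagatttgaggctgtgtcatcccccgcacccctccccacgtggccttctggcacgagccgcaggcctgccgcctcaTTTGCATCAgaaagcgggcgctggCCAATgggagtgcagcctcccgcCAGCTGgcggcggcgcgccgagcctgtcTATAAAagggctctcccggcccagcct

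The motifs were searched on both strands of the 250 bases before each start, and 9 of the 10 genes had a window, Trp53inp1 being the exception. In the Cdkn1a window the capitals GGACTAGCTT and GAACATGTCT fit the p53 decamer, the pattern of a p53 half-site, at 73 and 51 bases before the start. A p53 decamer was also found in the windows of Gadd45a (40 bases before the start, past the stretch printed), Mdm2, Ccng1, Trp53 and Bax, thus in 6 of 9 genes, against 7.13% of the 32851 windows of all genes. These shares are not alike in unit, since the 9 genes had 12 windows and each gene was counted once. The genes were also chosen as p53 targets or relatives of these. Gadd45b, Gadd45g and Bbc3 had none. In the printed stretches of Gadd45a and Gadd45b the capitals CCGCCC are the Sp1 motif GGGCGG on the other strand (32.7% of all windows), CCAAT is the CCAAT box (33.8%), and TATAAA, found in Gadd45b and Gadd45g, is the TATA box (12.4%). Gadd45g also held an E-box CAGCTG (13.0%), the letters bound by MyoD and myogenin, and TTTGCATCA, the ATF4 pattern TGATGNAAN on the other strand (3.44%). The FoxO motif GTAAACA (3.17%) was found in the windows of Mdm2 and Bbc3. The end of the Bbc3 window with this motif was not found in a GENCODE transcript of Bbc3. The AP-1 motif TGANTCA (6.75%) and the CRE TGACGTCA (1.55%) were found in none of the 9 genes. These matches are descriptions of the letters in these windows, and a second, downstream window of Cdkn1a held only Sp1 motifs. Any link of a motif to a rise or a fall was not tested.

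The targeted genes were checked first. In basal muscle Sesn1 was 59.4 ± 15.5 in Sesn1SkM-Tg against 18.5 ± 3.37 in WT (SD, n = 4 each), and Sesn2 was 10.8 ± 2.97 in Sesn2SkM-Tg against 2.63 ± 0.524. Both transgenes are human and the reads were quantified against the mouse transcriptome, so these counts may not measure the full transgene level. In immobilized muscle Sesn1 in Sesn1SkM-Tg against WT had a log2 fold change of 1.43 (limma, adjusted p = 0.091). Sesn2 in Sesn2SkM-Tg against WT had one of 1.86 (adjusted p = 2.0e-04). Sesn3 was lower in basal Sesn2SkM-Tg than in WT muscle (-1.21, adjusted p = 0.016). In basal muscle of set 2, Sesn1 was 9.14 ± 0.676 in Sesn1KO against 25.8 ± 3.67 in WT, with no overlap. In immobilized Sesn1KO muscle, however, the normalized Sesn1 count was 26.0 ± 8.48 against 41.0 ± 9.24 in WT, which overlapped (log2 fold change -0.66, adjusted p = 0.069), so the table does not show Sesn1 RNA as absent from the muscles labelled Sesn1KO. The paper examined Sesn1 protein of this line by Western blot, which RNA counts do not measure. Library sums ran from 722430 to 1276769, lowest in denervated muscle (722430 to 811541), and the median log2 fold change of all genes lay between -0.03 and 0.02 in every comparison. In bulk muscle, fewer cells of a type and less RNA per cell cannot be told apart.

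Denervation moved nearly all of these genes. Of the 10 genes, 6 rose and 3 fell in denervated against basal WT muscle of set 2, where 55.5% of the 13629 genes tested were called (limma on log2(value + 1), adjusted p under 0.05 over all genes and a log2 fold change of 0.25 or more in either direction). Cdkn1a, Gadd45a, Bax, Bbc3, Trp53 and Mdm2 rose, Gadd45b, Ccng1 and Gadd45g fell, and Trp53inp1, which encodes a stress-induced partner of p53, was not called (log2 fold change 0.18, 95% CI -0.29 to 0.65). The median log2 fold change of the 10 genes was 0.79, against -0.03 for all genes.

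In basal WT muscle of set 2, Cdkn1a stood at 5.80, 6.27, 5.75 and 6.68, and it stood at 114, 121, 93.6 and 105 in the 4 denervated libraries. All denervated libraries thus lay far above all basal ones. On the log2(value + 1) scale the rise was 3.93 (SE 0.25, adjusted p = 3.4e-11). Gadd45a stood at 14.2, 16.6, 16.5 and 15.4 in basal and at 403, 445, 361 and 416 in denervated libraries, again without overlap, a rise of 4.61 (SE 0.22, adjusted p = 1.1e-12). Neither value depended on a single library, since leaving out each library in turn gave 3.88 to 4.00 for Cdkn1a and 4.56 to 4.66 for Gadd45a.

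With immobilization both genes were called higher in WT of set 1, in Sesn2SkM-Tg and in Sesn1KO muscle, while Gadd45a alone was called in WT of set 2 and in Sesn1SkM-Tg. In WT muscle of set 2, Gadd45a stood at 59.5, 82.6, 79.0 and 41.5 after immobilization, above every basal library (log2 fold change 1.95, SE 0.22, adjusted p = 1.2e-06). Cdkn1a stood at 6.96, 7.29, 12.7 and 6.05 and overlapped the basal range (log2 fold change 0.33, 95% CI -0.18 to 0.84, adjusted p = 0.32). Denervated muscle exceeded immobilized muscle by 3.60 for Cdkn1a and by 2.66 for Gadd45a on the log2 scale (SE 0.25 and 0.22, adjusted p = 5.4e-10 and 8.4e-09). In that comparison 7 of the 10 genes were called, 4 higher and 3 lower, with 38.9% of all genes called. Bax and Trp53 were the others that were higher (0.79 and 0.45, adjusted p = 2.9e-05 and 0.0081). Gadd45b, Gadd45g and Ccng1 were lower in denervated muscle (-1.05, -0.97 and -0.55, adjusted p = 0.0014, 0.035 and 0.0012), and the call of Gadd45g was lost in 6 of the 8 fits that left out a library. The log2 fold changes of Bbc3, Trp53inp1 and Mdm2, which were not called, were 0.22, 0.11 and 0.09.

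In Sesn1KO muscle Cdkn1a stood at 4.75, 7.54, 8.10 and 8.04 in basal and at 29.8, 40.0, 17.5 and 13.6 in immobilized libraries, without overlap (log2 fold change 1.60, SE 0.25, adjusted p = 3.0e-05). Leaving out each library gave 1.35 to 1.84, and the call was kept in 8 of 8 fits. Gadd45a stood at 14.6, 13.5, 12.8 and 13.2 in basal and at 81.7, 88.5, 33.0 and 61.4 in immobilized Sesn1KO libraries, also without overlap (2.12, SE 0.22, adjusted p = 2.5e-07).

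**Figure D1:**
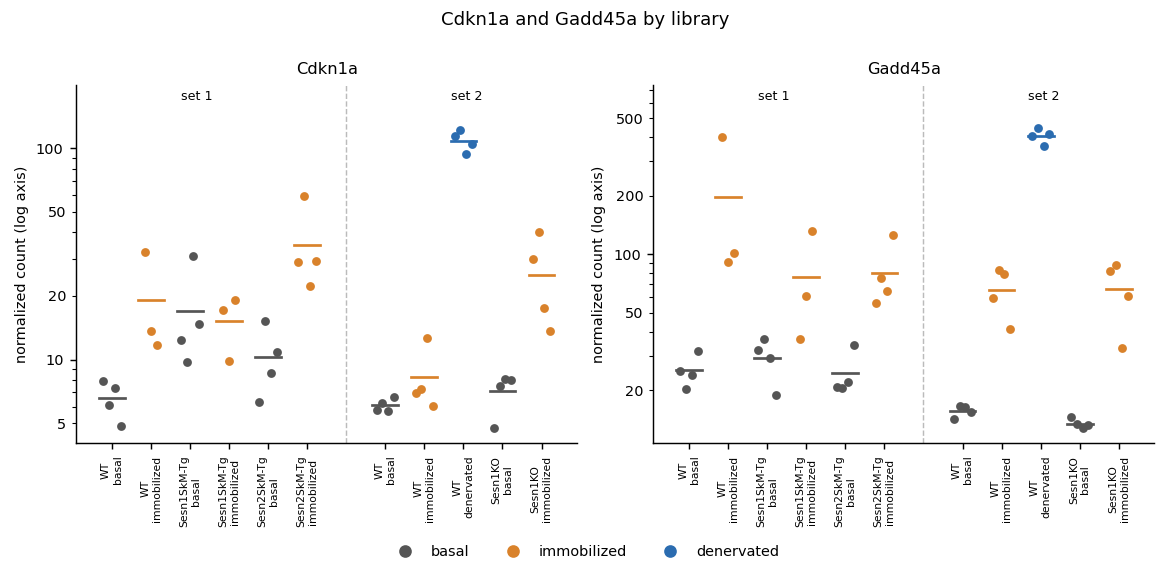
Normalized counts (log axis) of Cdkn1a and Gadd45a in each library (points) with the group mean (line), by genotype and treatment, set 1 left and set 2 right of the dashed line in each panel. The 4 denervated libraries lie between 93.6 and 121 for Cdkn1a and between 361 and 445 for Gadd45a, and immobilized WT muscle of set 2 overlaps basal muscle for Cdkn1a but not for Gadd45a.

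In set 1, immobilized WT muscle had Cdkn1a at 32.2, 13.6 and 11.7 against 4.84 to 7.90 in the basal libraries. The groups did not overlap, and the log2 fold change was 1.30 (SE 0.38, adjusted p = 0.014). Gadd45a stood at 399, 90.8 and 102 against 20.3 to 31.7 (log2 fold change 2.59, SE 0.42, adjusted p = 1.9e-04). The first immobilized library was the highest for both genes. Without it the log2 fold change was 0.87 for Cdkn1a, which was no longer called (adjusted p = 0.10), and 1.91 for Gadd45a, which still was. In Sesn2SkM-Tg muscle Cdkn1a lay between 6.31 and 15.2 in basal libraries and between 22.2 and 59.5 in immobilized libraries. Gadd45a lay between 20.6 and 34.1 and between 56.2 and 125, and each gene rose by 1.64 on the log2 scale (adjusted p = 0.0013 and 0.0029). In Sesn1SkM-Tg muscle Cdkn1a was 9.76 to 31.0 in basal and 9.84 to 19.1 in immobilized libraries (log2 fold change -0.05, 95% CI -0.84 to 0.73). Gadd45a was higher after immobilization in Sesn1SkM-Tg muscle (36.5, 61.1 and 131 against 18.9 to 36.5, log2 fold change 1.20, adjusted p = 0.031), a call that was lost without immobilized library 2 or 3 or basal library 4 (0.71 to 1.62 over all libraries left out).

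Among the GADD45 genes, small nuclear proteins that bind the stress kinase MAP3K4 (MTK1) and cell cycle proteins, Gadd45b moved against Gadd45a. Gadd45b stood at 19.2, 26.4, 21.4 and 33.2 in basal WT libraries of set 2, at 11.2, 13.4, 19.1 and 14.6 after immobilization and at 8.73, 5.03, 5.22 and 7.24 after denervation. The denervated libraries lay below all others (log2 fold change -1.78 against basal, SE 0.24, adjusted p = 2.0e-06). With immobilization it fell by 0.74 (SE 0.24, adjusted p = 0.021), a call lost on leaving out either of 2 basal libraries or 1 immobilized library (adjusted p = 0.051, 0.077 and 0.069). Gadd45b also fell with immobilization in Sesn1KO (-0.98, adjusted p = 0.0026), in WT of set 1 (-1.74, adjusted p = 2.8e-04) and in Sesn2SkM-Tg (-0.96, adjusted p = 0.010). In Sesn1SkM-Tg muscle its log2 fold change was -0.73 (adjusted p = 0.059).

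Gadd45g had the widest error of the 10 genes in set 2 (SE 0.36). It stood at 18.2, 13.5, 28.3 and 30.5 in basal and at 12.2, 11.7, 5.91 and 19.9 in denervated WT libraries, which overlapped, and the fall of 0.86 on the log2 scale had an adjusted p = 0.046. That call was lost in 6 of the 8 fits that left out a library, with the replicate number as a block (adjusted p = 0.061) and without a trend in the fit (adjusted p = 0.059). With immobilization Gadd45g was lower in Sesn1SkM-Tg (-1.15, adjusted p = 0.022) and Sesn2SkM-Tg (-1.12, adjusted p = 0.018), each call being lost in 2 of the fits that left out a library, and was not called in WT of either set or in Sesn1KO.

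Levels per kb of exon compare genes only roughly here, since the deposited values look adjusted for each gene between the sets. On this scale Gadd45a made up 20.8% ± 4.02 of the summed level of the 3 GADD45 genes in basal WT muscle of set 2, less than Gadd45g (43.1% ± 8.86) and Gadd45b (36.1% ± 6.52) (SD, n = 4). After immobilization its share was 54.8% ± 3.25 and after denervation 94.1% ± 1.94. The summed level itself was 44.0 ± 9.23 per kb in basal, 68.1 ± 20.6 in immobilized and 245 ± 23.1 in denervated muscle. In each of the 5 immobilized groups the mean share of Gadd45a was above 50% (53.5% to 81.5%), and in each of the 5 basal groups it was under 30% (17.6% to 27.6%). The ranges of immobilized and basal libraries did not overlap within any genotype and set.

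**Figure D2:**
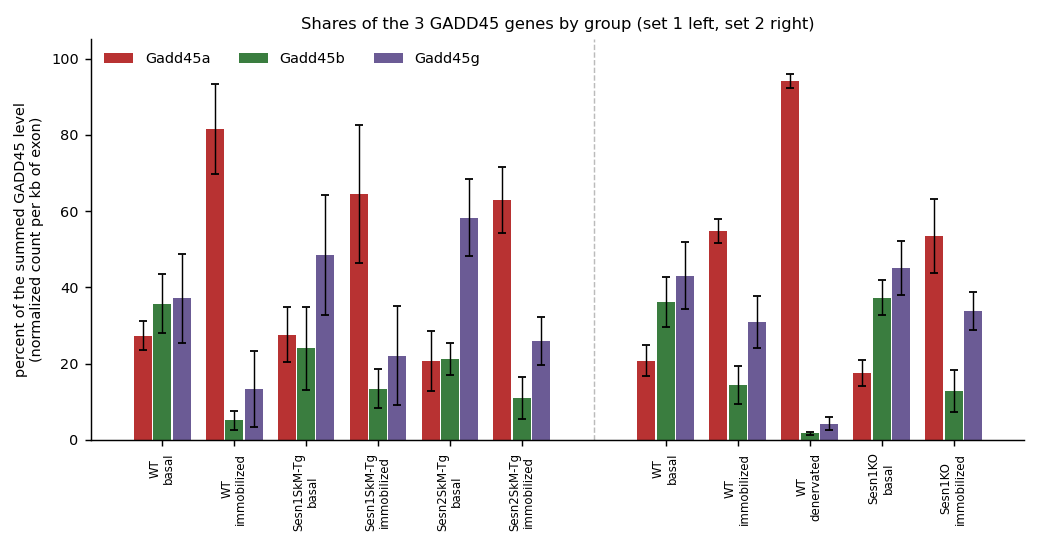
Mean percent of the summed GADD45 level (normalized count per kb of exon) taken by Gadd45a, Gadd45b and Gadd45g in each group, with SD bars (n = 3 or 4 libraries), set 1 left and set 2 right of the dashed line. Gadd45a has the smallest mean share in basal WT muscle of both sets and 94.1% after denervation.

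Trp53 and its regulator Mdm2 moved less. Trp53 stood at 12.2, 10.3, 8.83 and 14.3 in basal WT libraries of set 2 and at 25.5, 23.7, 22.8 and 24.7 after denervation, without overlap (log2 fold change 1.04, SE 0.13, adjusted p = 7.8e-07). Immobilization raised it by 0.58 in WT (adjusted p = 0.0014) and by 0.45 in Sesn1KO (adjusted p = 0.0091). Mdm2 stood at 48.5 to 56.9 in basal, 67.6 to 79.6 in immobilized and 71.3 to 89.9 in denervated WT libraries of set 2, and both treatments were called (0.46 and 0.55, SE 0.12 each, adjusted p = 0.0069 and 7.8e-04). In Sesn1KO muscle Mdm2 lay between 50.0 and 54.5 in basal and between 75.7 and 125 in immobilized libraries (0.90, adjusted p = 8.7e-06). In set 1 neither gene was called with immobilization in any genotype. The log2 fold changes there ran from -0.25 to -0.02 for Mdm2 and from 0.29 to 0.45 for Trp53.

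The apoptosis genes rose in every genotype. Bax, the pore-forming BCL-2 family member, stood at 7.23, 6.49, 6.57 and 7.64 in basal, at 10.1, 9.92, 12.4 and 12.3 in immobilized and at 20.5, 22.0, 17.6 and 19.9 in denervated WT libraries of set 2. The 3 groups did not overlap, and the rise with denervation was 1.39 (SE 0.12, adjusted p = 4.7e-09). With immobilization Bax rose by 0.59 to 0.86 over the 5 comparisons, although in set 1 the call was lost in WT and in Sesn1SkM-Tg without immobilized library 3 (adjusted p = 0.086 and 0.081). Bbc3, a BH3-only protein that promotes apoptosis, was the least abundant of the 10 genes, with 15 of 42 libraries below 1. In WT muscle of set 2 it stood at 0.606, 0.646, 0.955 and 0.981 in basal, at 2.04, 2.27, 2.42 and 2.07 in immobilized and at 3.73, 1.38, 3.23 and 3.00 in denervated libraries. Every treated library lay above every basal library, with rises of 0.84 (adjusted p = 0.0029) and 1.05 (adjusted p = 1.5e-04), and over the 5 immobilization comparisons Bbc3 rose by 0.84 to 1.16.

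Ccng1, a further direct p53 target and the most abundant of the 10 genes in basal muscle, fell. It stood at 1033, 997, 1079.7 and 845 in basal, at 599.5, 522, 533 and 556 in immobilized and at 316, 409, 398 and 391 in denervated WT libraries of set 2. The 3 groups did not overlap (denervated against basal -1.38, SE 0.12, adjusted p = 6.0e-09). With immobilization it was lower by 0.70 to 1.17 on the log2 scale in the 3 genotypes of set 1 and by 0.72 and 0.83 in Sesn1KO and WT of set 2. In set 1 the call was lost in WT without basal library 2 or immobilized library 2 or 3 (adjusted p = 0.052, 0.060 and 0.10) and in Sesn1SkM-Tg without immobilized library 3 (adjusted p = 0.078). Under quantile normalization the direction stayed and the call was lost in WT of set 1 (-0.40, adjusted p = 0.19), in Sesn1SkM-Tg (-0.53, adjusted p = 0.070) and between denervated and immobilized muscle (-0.25, adjusted p = 0.062). On the same rough scale per kb of exon, the mean level of Ccng1 in basal WT muscle of set 2 was 282, against 19.3 for Gadd45g, 15.8 for Gadd45b, 10.6 for Mdm2, 8.90 for Gadd45a, 4.43 for Bax, 2.82 for Trp53, 1.72 for Cdkn1a, 1.45 for Trp53inp1 and 0.375 for Bbc3. After denervation the order began with Gadd45a at 230.2, Ccng1 at 108 and Cdkn1a at 30.5.

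**Figure D3:**
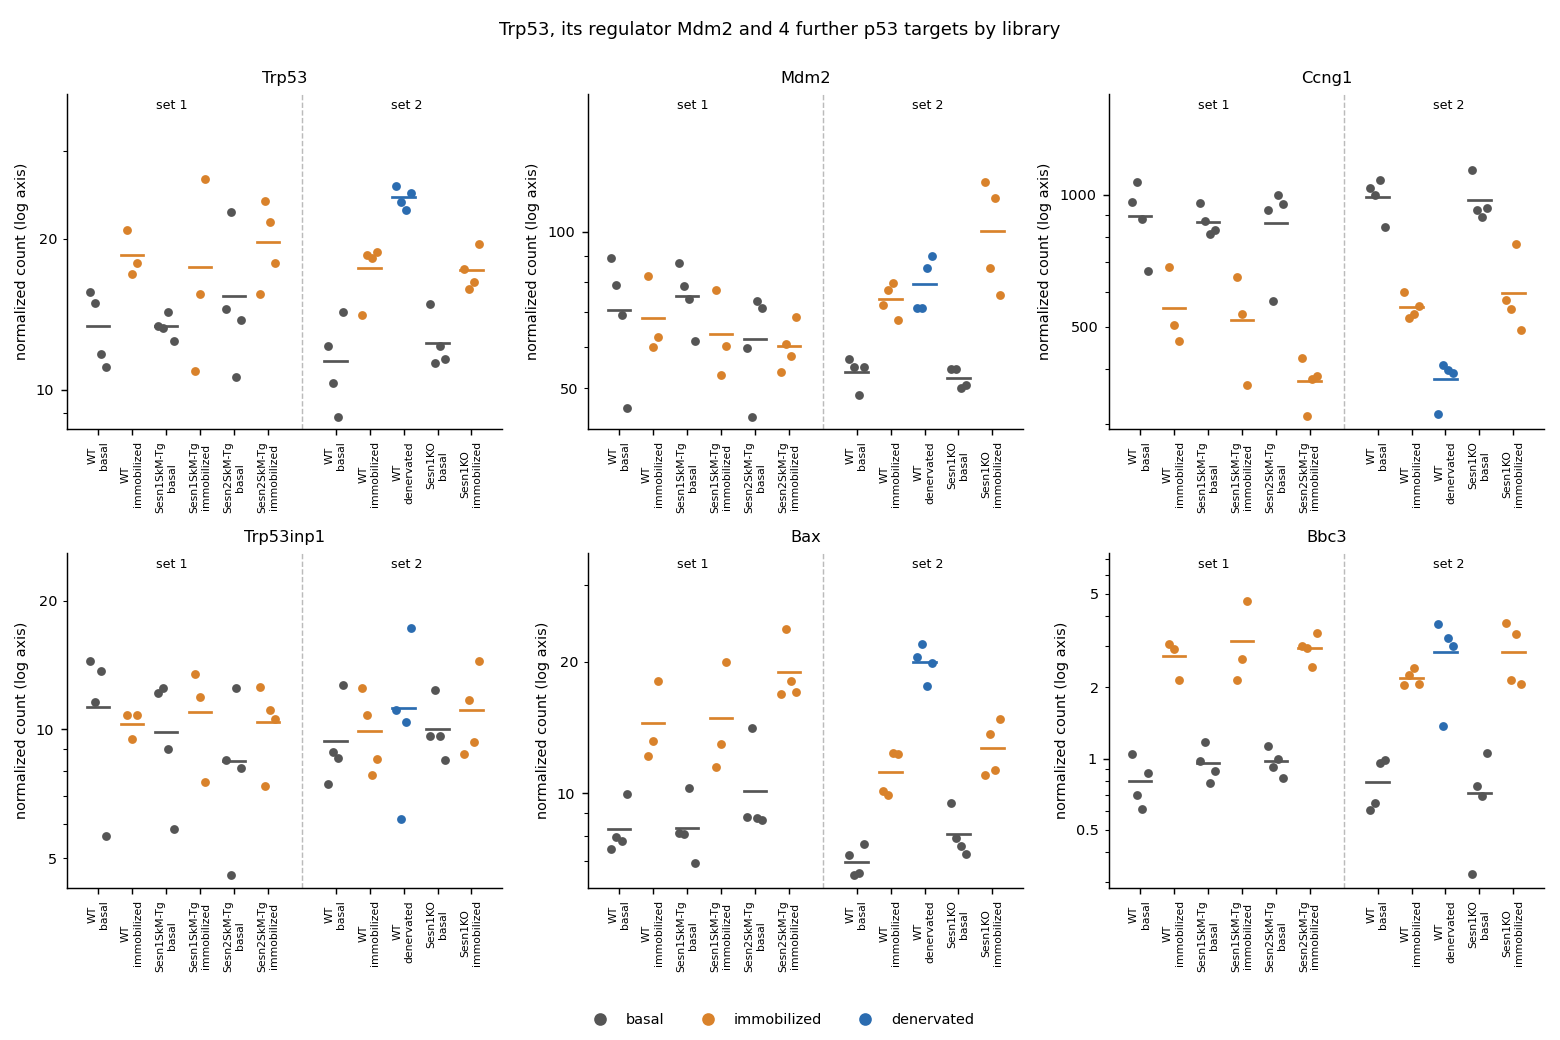
Normalized counts (log axis) of Trp53, Mdm2, Ccng1, Trp53inp1, Bax and Bbc3 in each library (points) with the group mean (line), set 1 left and set 2 right of the dashed line in each panel. In set 2, Ccng1 falls from basal (845 to 1079.7) over immobilized to denervated WT muscle (316 to 409), while Bax lies between 6.49 and 7.64 in basal and between 17.6 and 22.0 in denervated muscle.

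Over the immobilization comparisons, the genes called were 6 of 10 in WT of set 1 (4 higher and 2 lower, with 29.3% of all 13705 genes called), 5 in Sesn1SkM-Tg (3 and 2, 34.7%), 7 in Sesn2SkM-Tg (4 and 3, 30.7%), 7 in WT of set 2 (5 and 2, 33.9%) and 8 in Sesn1KO (6 and 2, 37.1%). Gadd45a, Bax and Bbc3 were called higher and Ccng1 lower in all 5 comparisons, and Trp53inp1 was called in none. The share of all genes called in the same direction in all 5 was not counted. In set 1 some of the calls of Gadd45a, Bax and Ccng1 were lost when a library was left out, as given above. The comparisons within a genotype use separate libraries. Their spread is wider in set 1, where the SE of Cdkn1a was 0.35 to 0.38 against 0.25 in set 2.

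**Figure D4:**
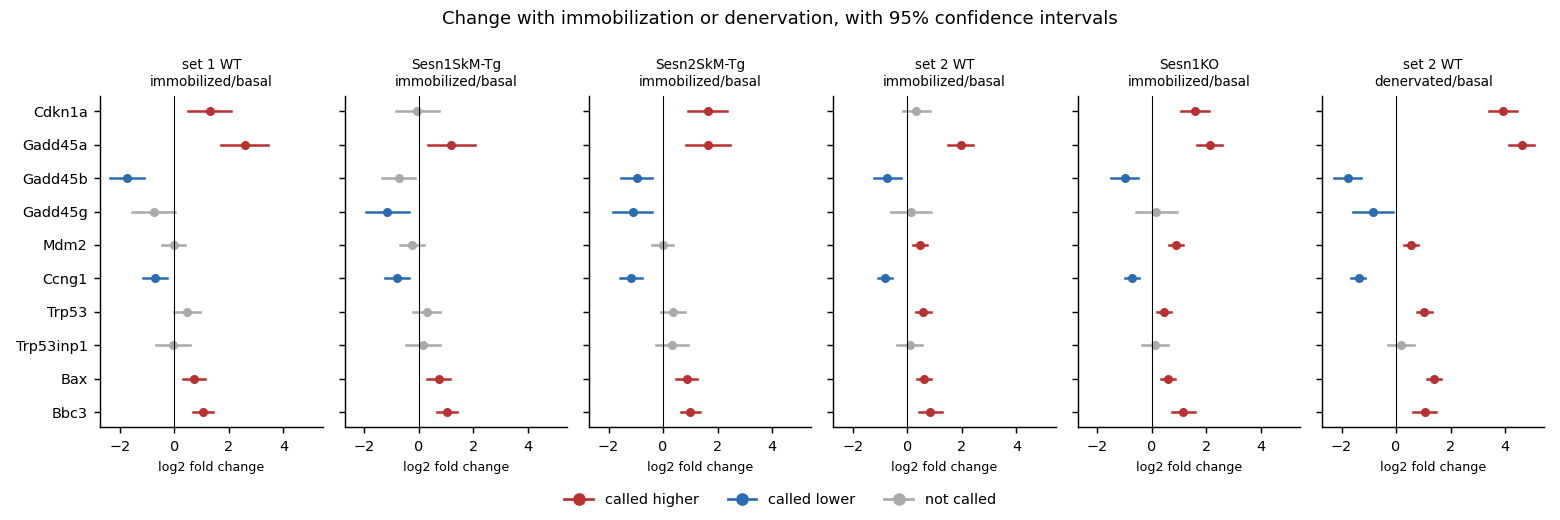
Log2 fold changes of the 10 genes (points) with 95% confidence intervals (lines) for immobilized against basal muscle in 5 genotype groups and for denervated against basal WT muscle, red called higher, blue called lower and gray not called. Gadd45a, Bax and Bbc3 lie right of 0 and Ccng1 left of 0 in all 6 panels.

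The genotype comparisons asked whether altered sestrin levels changed these genes. Cdkn1a was the single gene called in any of them. In immobilized muscle it stood at 29.8, 40.0, 17.5 and 13.6 in Sesn1KO against 6.96, 7.29, 12.7 and 6.05 in WT, without overlap (log2 fold change 1.43, SE 0.25, adjusted p = 0.0059), where 0.947% of all genes were called. It was called with each library left out (1.18 to 1.68), but not when the spread was estimated from the compared groups alone (adjusted p = 0.33). In basal muscle the log2 difference was 0.16 (95% CI -0.35 to 0.68), and the difference between the genotypes in the immobilization effect was 1.27 (95% CI 0.54 to 2.00, adjusted p = 0.29), so that a larger effect in Sesn1KO was not shown. In order of the mean, Cdkn1a in set 2 was 6.13 in basal WT, 7.11 in basal Sesn1KO, 8.26 in immobilized WT, 25.2 in immobilized Sesn1KO and 108 in denervated WT muscle. The first 3 of these overlapped, and the last 2 each lay apart from all other groups. The immobilized groups did not stand apart from each other for Gadd45a, which was 65.7 ± 19.0 in WT and 66.1 ± 24.9 in Sesn1KO muscle (log2 difference -0.03, 95% CI -0.49 to 0.43). Mdm2 was 100.4 ± 23.7 against 74.2 ± 5.36 (0.40, 95% CI 0.15 to 0.66, adjusted p = 0.12).

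In basal Sesn1KO against WT muscle, 0 of the 10 genes were called by limma and 0 had an unadjusted p under 0.05, against 0.147% of all genes called and 4.64% with such a p. For the difference in the immobilization effect of Sesn1KO these counts were 0 and 2, Cdkn1a and Mdm2, against 0.0220% and 7.98% of all genes. In set 1, 0 of the 10 genes were called in any genotype comparison by limma. Of all genes, 0.0292%, 0.00730% and 0% were called between Sesn1SkM-Tg and WT in basal muscle, in immobilized muscle and in the difference in the immobilization effect, and 2.50%, 2.94% and 0.00730% between Sesn2SkM-Tg and WT. Between Sesn1SkM-Tg and WT, 1 of the 10 genes had an unadjusted p under 0.05 in basal muscle (Cdkn1a, with 3.63% of all genes at such a p), 1 in immobilized muscle (Gadd45a, 3.04%) and 3 in the difference in effect (Cdkn1a, Gadd45a and Gadd45b, 2.93%). Between Sesn2SkM-Tg and WT the counts were 1 in basal muscle (Gadd45g, 15.6%), 3 in immobilized muscle (Cdkn1a, Gadd45a and Ccng1, 19.2%) and 0 for the difference in effect (7.35%). The intervals stayed wide: the immobilization effect on Gadd45a in Sesn1SkM-Tg minus that in WT was -1.39 (95% CI -2.62 to -0.16, adjusted p = 1.0), and that on Cdkn1a was -1.35 (95% CI -2.46 to -0.24, adjusted p = 1.0). Without the first immobilized WT library these differences were -0.71 for Gadd45a and -0.92 for Cdkn1a. Basal Cdkn1a was 16.9 ± 9.56 in Sesn1SkM-Tg against 6.56 ± 1.36 in WT (log2 difference 1.13, 95% CI 0.41 to 1.86, adjusted p = 1.0), with the 4 Sesn1SkM-Tg libraries at 12.4, 9.76, 31.0 and 14.7 and the WT libraries at 4.84 to 7.90.

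**Figure D5:**
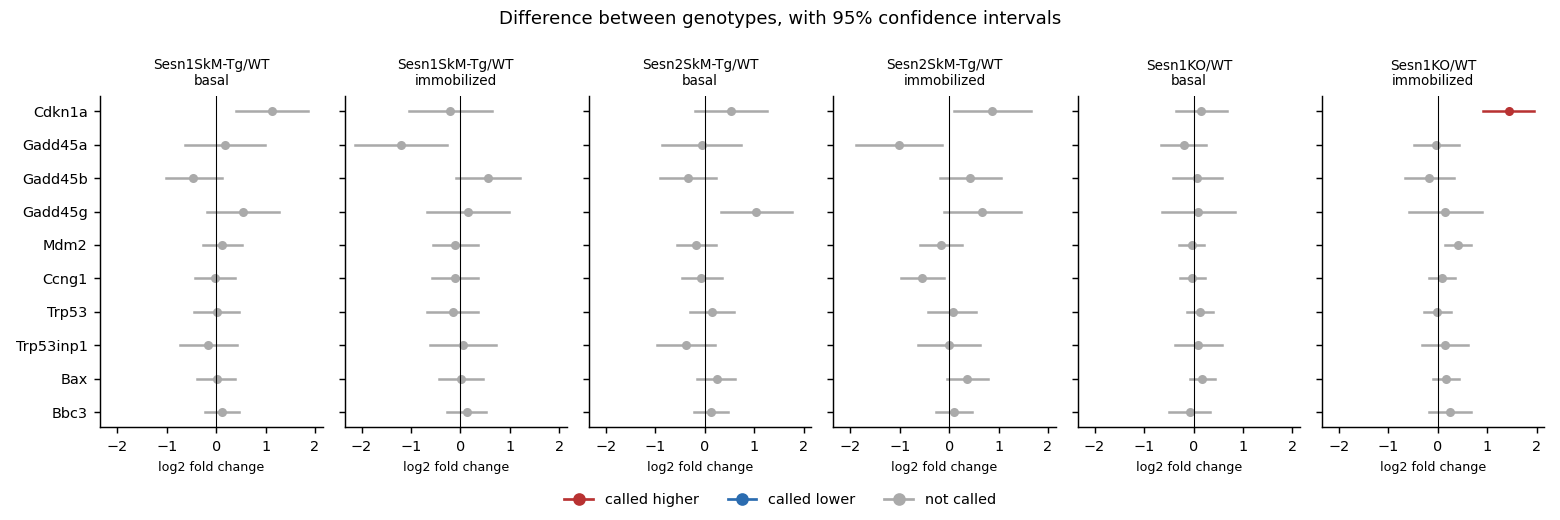
Log2 differences of the 10 genes (points) between each altered genotype and WT in basal and immobilized muscle, with 95% confidence intervals (lines), red called higher and gray not called. Cdkn1a in immobilized Sesn1KO against WT (1.43) is the single called difference.

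Other genes of the pathway were described from lists, whose counts stand against 55.5% of all genes called with denervation and 33.9% and 29.3% with immobilization in WT of sets 2 and 1. Of 14 p53 regulators tested, 3 rose and 3 fell with denervation, a smaller share than of all genes, and the largest changes were those of Trp63 (1.90, adjusted p = 4.7e-08), the p53 relative p63, and Atr (0.73, adjusted p = 2.6e-04), a DNA damage kinase. With immobilization 5 rose and 3 fell in WT of set 2, led by Trp63 (1.39, adjusted p = 1.4e-05) and Chek2 (-0.86, adjusted p = 0.0047), and 0 were called in WT of set 1. Trp63 was also the single p53 regulator called between immobilized Sesn1KO and WT muscle, at 22.0 to 46.9 against 13.8 to 17.1 (0.96, adjusted p = 0.017).

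Of 23 other p53 targets tested in set 2 (24 in set 1), 8 rose and 3 fell with denervation (against 55.5% of all genes called), 6 and 3 with immobilization in WT of set 2 (33.9%), and 4 and 3 in WT of set 1 (29.3%). Eda2r, a receptor of the TNF receptor family, stood at 9.06 to 16.1 in basal, 185 to 264 in immobilized and 158 to 232 in denervated WT libraries of set 2 (4.06 and 3.80, adjusted p = 2.4e-12 and 5.3e-13), so that unlike Cdkn1a its treated groups overlapped. Plk2, a polo-like kinase, rose by 2.33 with denervation (adjusted p = 8.5e-10), the antiproliferative gene Btg2 by 1.60 with immobilization in set 2 (adjusted p = 8.4e-04), and Dram1, a lysosomal protein, by 1.14 in set 1 (adjusted p = 0.011), where Eda2r rose by 3.03 (adjusted p = 3.3e-05). The median log2 fold change of the list was 0.12, 0.17 and 0.14 in these comparisons, against -0.03, -0.02 and 0.00 for all genes. In genotype comparisons Plk2 was lower in basal Sesn2SkM-Tg (-0.82, adjusted p = 0.035) and Phlda3, an inhibitor of AKT, higher in immobilized Sesn2SkM-Tg muscle (0.79, adjusted p = 0.0098).

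Of 10 further BCL-2 family genes, 2 rose and 1 fell with denervation, a smaller share than the 55.5% of all genes called, led by Bid (1.68, adjusted p = 2.6e-06) and Bak1 (0.72, adjusted p = 8.5e-04), which like Bax promote apoptosis. Bak1 and Bad rose with immobilization in WT of set 2 (1.10 and 0.64, adjusted p = 3.1e-05 and 0.0055), and 4 genes did in WT of set 1, led by Bid (1.45, adjusted p = 0.0021) and Bak1 (0.90, adjusted p = 0.0014). Bcl2l1, which opposes apoptosis, was higher in basal Sesn2SkM-Tg than in WT muscle (0.72, adjusted p = 0.047).

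Of 14 partners and relatives of p21 and GADD45, 6 rose and 5 fell with denervation, against 55.5% of all genes called. The largest changes were those of Cdk2 (1.20, adjusted p = 1.3e-05), a kinase that p21 inhibits, and Cdk1 (1.06, adjusted p = 0.0020), which drives entry into mitosis. In WT of set 2 immobilization moved 2 genes (33.9% of all genes called), Mapk14, the p38 kinase downstream of GADD45 proteins (-0.70, adjusted p = 5.0e-04), and Pcna (0.36, adjusted p = 0.046), and in WT of set 1 it moved 8 (29.3%), led by Cdk1 (1.56, adjusted p = 0.0075) and Ccnb1 (1.29, adjusted p = 0.015). Of 7 other known regulators of Cdkn1a or Gadd45a, 6 rose with denervation. Myog (myogenin) went from 1.22 ± 0.349 to 104 ± 16.2 (5.57, adjusted p = 2.3e-13) and Myod1 from 21.4 ± 1.58 to 104 ± 10.5 (2.23, adjusted p = 6.3e-09). With immobilization in WT of set 2, 3 rose and 1 fell, and Hdac4 and Myog rose by 0.98 and 0.81 (adjusted p = 5.8e-06 and 0.014), and in WT of set 1 by 0.80 and 1.74 (adjusted p = 0.031 and 6.8e-04). Myog was higher in immobilized Sesn1KO than in WT muscle (1.09, adjusted p = 0.031). In Sesn2SkM-Tg against WT, Myod1 was higher in basal (1.13, adjusted p = 0.021) and Atf4 in immobilized muscle (0.70, adjusted p = 0.020).

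Over the 11 group means, each centred on its set, the 5 genes nearest to Cdkn1a among 13474 were Chrna9 (distance 1.13), Ppp1r27 (1.41), Krt80 (1.41), Kcnn3 (1.46) and Scx (1.51), against a median distance of 3.79. The 5 nearest to Gadd45a were Cd82 (0.85), Gdf5 (1.01), Ampd3 (1.24), Lpin2 (1.47) and Kcnn3 (1.48), against a median of 4.61. Kcnn3, a calcium-activated potassium channel, was in both groups of neighbours. The denervated group entered these distances, so that the neighbours' own denervation changes follow from the choice.

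Markers of other cells moved with the treatments. The summed level of the 6 muscle fiber markers was 117759 to 128926 in basal, 109644 to 116945 in immobilized and 47605 to 62975 in denervated WT libraries of set 2, and all 6 fell with denervation. In WT of set 1 it was 107437 to 133634 in basal and 71221 to 87924 in immobilized libraries, and 2 of the 6 fell. The 6 macrophage markers summed to 27.7 to 129 in basal, 94.5 to 189.9 in immobilized and 40.3 to 108 in denervated libraries, where 1 of them rose. In set 1 they summed to 34.6 to 51.7 in basal and 162 to 341 in immobilized WT libraries, and all 6 rose. In immobilized Sesn2SkM-Tg against WT muscle, Adgre1 and Csf1r were lower (-1.49 and -1.18, limma, adjusted p = 0.023 and 0.047). The other macrophage markers were not called there, and the log2 fold change of Cd68 was 0.80. The 2 markers of dividing cells, Mki67 and Top2a, summed to 0.467 to 1.13, 1.47 to 8.65 and 3.06 to 10.6 in basal, immobilized and denervated WT libraries of set 2. The 3 endothelial markers fell with denervation, with sums of 205 to 261 in basal and 101 to 129 in denervated libraries. The part of these shifts in the values of the 10 genes was not tested. Since the kit named does not mark strand, reads of Gadd45a and Cdkn1a could not be told apart from those of the unlisted antisense transcripts that overlap them, and Bax overlaps a gene on its own strand.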

How the data were processed

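The authors extracted total RNA from TA muscle, made libraries with a NEBNext Ultra kit, and used Illumina sequencing. Per the paper and the submitters' processing notes, they trimmed the reads with Cutadapt 1.7.1, quantified them against the GRCm38 transcriptome with RSEM 1.2.20 and normalized them with limma. The signal values the authors deposited are normalized counts on a linear scale, with no log transformation, and the number of reads behind them is unknown. They look adjusted for each gene between the sets, so comparisons were made only within a set.

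Genes that reached 1 in any library of a set entered its fit (13705 in set 1, 13629 in set 2). A mean for each group was fitted to log2(value + 1) with limma 3.58.1 in R 4.3.3, and the variances were moderated with a trend (eBayes). The p-values are two-sided and adjusted over all genes (Benjamini-Hochberg) within each comparison. Calls needed an adjusted p below 0.05 together with a log2 fold change of 0.25 or more in either direction. Fold changes on this scale understate those of low genes such as Bbc3. The fit was tested on simulated data with known changes. A first simulation, whose spread was drawn from raw residual SDs, exceeded the limit set on false calls in 1 comparison. The simulation was then changed to moderated variances, with which the limit was kept and 4.8% to 7.8% of calls were false. It changed 200 genes by 2 on the log2 scale, far fewer than were called in the treatment comparisons. Its noise followed the fitted model, so departures from that model were not tested. Comparisons within a set share WT libraries, and p-values measure only the spread between libraries.

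The 10 genes were followed in every comparison, and those not named in a comparison are given by counts or ranges. Of each gene list, the 2 called genes with the largest change are named for denervation and WT immobilization, and all called genes where a genotype comparison had at most 5. Members and lists were chosen with earlier results of these data known. Levels per kb used exon lengths of GENCODE M21. Alternatives were the pseudocount, the filter, the normalization, the trend, the groups fitted, a block for the replicate number, the fold change threshold and each library left out.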

Additional observations from a re-analysis of the deposited data

Results flagged for a closer look

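A library far from the other 3 of its group was found in 5 of the 90 combinations of gene and group of 4 libraries, by Dixon's criterion, close to the 1 in 20 that chance gives. Cdkn1a was 4.75 in the first basal Sesn1KO library against 7.54 to 8.10 in the others. Gadd45a was 34.1 in the fourth basal Sesn2SkM-Tg library against 20.6 to 22.0. The second basal Sesn2SkM-Tg library stood apart for both Ccng1, at 571 against 924 to 996, and Bax, at 14.1 against 8.68 to 8.83. Trp53 was 14.1 in the first immobilized WT library of set 2 against 18.3 to 18.8. Groups of 3 libraries were not tested in this way, among them the immobilized WT muscles of set 1 in which the first library had the highest Cdkn1a and Gadd45a.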

How the results depend on the processing

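No value of the 10 genes that was called changed its sign under any alternative run. The number of the 10 genes called stayed within 1.5 times in all 16 comparisons under 9 of the 10 alternatives that keep all libraries. When the compared groups alone were fitted, 0 genes in place of 1 were called between immobilized Sesn1KO and WT muscle; fewer libraries then estimate the spread. With single libraries left out, the number called ran from 2 to 5 for immobilization in Sesn1SkM-Tg (3 without immobilized library 2, 2 without immobilized library 3) and from 1 to 2 for immobilized Sesn1KO against WT, where Mdm2 was added (0.53, adjusted p = 0.014) without immobilized Sesn1KO library 4. Of 389 fits with a library left out for the 50 fold changes called with all libraries, 360 kept the call and 29 lost it, and of 1051 such fits for the 110 not called, 3 gained one. Gadd45b in Sesn1SkM-Tg was called with immobilization under median centring (-0.77, adjusted p = 0.049) and with the compared groups alone (-0.73, adjusted p = 0.048).

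Whether the replicate numbers pair the libraries was not settled. Of 91 pairs of libraries with the same number, 23 had deviations correlated above 0.1 (range -0.45 to 0.54, median 0.00). Libraries with differing numbers were not compared in this way. With the replicate number as a block, 8 of the 10 genes in place of 9 were called with denervation, and no other member's call changed.

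Over all genes, counts differed by more than 1.5 times between genotypes. With the compared groups alone they were 1 in place of 4 (basal Sesn1SkM-Tg against WT), 103 in place of 343 and 233 in place of 403 (basal and immobilized Sesn2SkM-Tg), 14 in place of 129 (immobilized Sesn1KO) and 0 in place of 3 (difference in effect, Sesn1KO). Under the block they were 229 in place of 403, 0 in place of 1 (difference in effect, Sesn2SkM-Tg) and 0 in place of 3. Under quantile normalization they were 2 in place of 4, 2 in place of 1 (immobilized Sesn1SkM-Tg) and 5 in place of 3, under median centring 5 in place of 3, and without a trend 2 in place of 1 and 0 in place of 3. With a library left out they ran from 2020 to 4026 for WT immobilization in set 1, from 2791 to 4979 for Sesn1SkM-Tg, from 156 to 1027 and from 112 to 316 for basal and immobilized Sesn2SkM-Tg against WT, and from 40 to 608 for immobilized Sesn1KO against WT. The cause was not tested. Read depth is unknown, so no counting error could be given for low genes such as Bbc3.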
